A study of Homo sapiens with 6 samples.

Results

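The 10 genes described here are the transcriptional output arm of the Hippo pathway and its nearest regulators: YAP1, WWTR1, TEAD1, TEAD4, LATS2, CCN1, CCN2, ANKRD1, AMOTL2 and AMOTL1. They were chosen by gene symbol from the 17862 genes of the expression table, and each of the 10 was present under that symbol. RNA was sequenced from SCC-9, a human cell line established from a squamous cell carcinoma of the tongue, to ask what follows when MTHFD2, a mitochondrial enzyme of folate metabolism, is lowered; the study's title names FOXO1 degradation as its subject. The knockdown cells carried short hairpin RNA plasmids against MTHFD2 (shMTHFD2, 3 libraries) and the others a control hairpin (shNC, 3 libraries). In both groups the culture medium contained hydrocortisone at 400 ng/mL and fetal serum at 10%. The design text calls the modified cells knock-out, but its treatment label describes a knockdown, and neither the number nor the identity of the hairpins is stated. Replicates are called biological and nothing more is said of the cultures, so the p-values reflect differences among these 6 libraries, which may be partly technical.

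The Hippo pathway is a kinase cascade that restrains organ growth. When its LATS kinases are active they phosphorylate YAP (from YAP1) and TAZ (from WWTR1), which are then held in the cytoplasm or degraded. When the cascade is quiet, for instance in spread or mechanically stretched cells, YAP and TAZ enter the nucleus and bind TEAD factors, the proteins that contact DNA. CCN1 and CCN2, which encode secreted matrix-associated proteins, and ANKRD1, a nuclear ankyrin-repeat protein, are the genes most often read as their output. LATS2 and AMOTL2 are also induced by YAP and then restrain it, which makes them feedback genes. In squamous carcinoma YAP and TAZ are known as drivers of growth and invasion. The activity of the pathway is set largely by protein phosphorylation and location, which RNA levels do not measure.

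TEAD proteins recognise a short DNA word, GGAATG, or CATTCC on the other strand. Promoter windows from 250 bases before to 50 bases after the transcription start were read from RefSeq (GRCh38.p14). Of the 10 genes 7 had a window there, with 9 windows in all. CCN1, TEAD1 and TEAD4 had no window, so their promoters were not searched. Both words were searched on the printed strand and counted without overlap. Of 35116 windows of the same length, 14% held at least 1 match, 1.36% at least 2 and 0.125% at least 3. Of the 9 windows 5 held a match, 1 for each of YAP1, LATS2, CCN2, ANKRD1 and AMOTL2. The 4 windows printed are those of the target and feedback genes with a match, so that the word count can be set beside how each gene behaved. Capitals mark the matches, and each sequence reads 5′ to 3′ along the gene.
CCN2, chr6:131951323-131951622, minus strand: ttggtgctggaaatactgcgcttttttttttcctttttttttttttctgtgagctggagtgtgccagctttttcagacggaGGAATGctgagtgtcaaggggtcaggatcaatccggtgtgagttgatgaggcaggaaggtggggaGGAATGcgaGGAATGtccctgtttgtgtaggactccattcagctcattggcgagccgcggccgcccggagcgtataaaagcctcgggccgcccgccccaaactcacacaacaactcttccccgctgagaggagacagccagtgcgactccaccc
ANKRD1, chr10:90921038-90921337, minus strand: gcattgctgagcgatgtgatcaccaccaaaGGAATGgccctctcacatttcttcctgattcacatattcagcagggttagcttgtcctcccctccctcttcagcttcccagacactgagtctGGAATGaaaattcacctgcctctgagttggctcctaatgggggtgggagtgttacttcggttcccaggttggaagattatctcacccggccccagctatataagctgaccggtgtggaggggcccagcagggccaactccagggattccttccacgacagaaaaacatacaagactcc
AMOTL2, the second of its windows, chr3:134374398-134374697, minus strand: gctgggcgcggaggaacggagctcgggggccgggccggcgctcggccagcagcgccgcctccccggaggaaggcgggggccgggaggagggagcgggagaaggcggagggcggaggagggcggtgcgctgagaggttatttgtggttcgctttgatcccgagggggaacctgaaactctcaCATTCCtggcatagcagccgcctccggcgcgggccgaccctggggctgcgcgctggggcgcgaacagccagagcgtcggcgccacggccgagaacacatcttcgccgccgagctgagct
LATS2, chr13:21061537-21061836, minus strand: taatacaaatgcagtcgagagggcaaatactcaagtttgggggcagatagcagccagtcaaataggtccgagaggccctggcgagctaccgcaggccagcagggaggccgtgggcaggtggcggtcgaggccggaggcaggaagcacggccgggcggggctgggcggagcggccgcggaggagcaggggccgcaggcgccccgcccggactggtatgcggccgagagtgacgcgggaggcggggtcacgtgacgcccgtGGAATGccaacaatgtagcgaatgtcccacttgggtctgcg
The CCN2 window held 3 matches, starting 169, 104 and 95 bases before the start, and the ANKRD1 window held 2, at 220 and 128 bases before it. AMOTL2 had 1 match at 69 bases before the start, and LATS2 had 1 just downstream of its start. YAP1 had 1 match, at 162 bases before the start, while the WWTR1 and AMOTL1 windows held none. A match describes letters in this window and shows no binding.

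Values for single genes are estimated read counts relative to library size, scaled by the TMM method and given as CPM, listed for replicates 1, 2 and 3 of shMTHFD2 and then of shNC. Fold changes are log2 values of shMTHFD2 over shNC with their SE, from edgeR's quasi-likelihood test, with p-values adjusted by Benjamini-Hochberg over the 13710 genes tested. "Rose" and "fell" are used for an adjusted p under 0.05. The libraries held 18676999 to 19838989 estimated counts. The shMTHFD2 libraries correlated with each other less closely (r = 0.958 to 0.984 across genes) than the shNC libraries did (r = 0.992 to 0.994), and genes are not independent replicates. All 12 squamous epithelial markers were above 1 TPM in these libraries, with KRT14, a basal keratin, as the most abundant. All 6 endothelial markers, led by PECAM1, were below 1 TPM, as was PTPRC, the pan-leukocyte antigen, among 5 of 8 immune markers, whose sum of 146, 189 and 209 TPM in shMTHFD2 and 144, 144 and 160 TPM in shNC was mostly the lysosomal gene CD68. Muscle markers, led by ACTA1, summed to 0.76 to 1.6 TPM in shMTHFD2 and 0.78 to 1.18 TPM in shNC. The 8 fibroblast markers summed to 13.6, 24.5 and 13.0 TPM in shMTHFD2, against 8.60, 6.16 and 8.92 TPM in shNC, most of it COL1A1; its part in the results was not tested.

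The hairpin lowered its target in every library, to different depths. MTHFD2 had 46.9, 35.7 and 65.8 CPM in shMTHFD2, against 190, 200 and 182 CPM in shNC. It fell by 1.95 ± 0.21 on the log2 scale (SE; adjusted p = 0.00924). The 3 knockdown libraries kept 24.6%, 18.7% and 34.5% of the shNC mean, so replicate 2 was the deepest knockdown and replicate 3 the shallowest. The call for MTHFD2 itself ended when shMTHFD2 replicate 1 or any shNC library was left out, with adjusted p up to 0.0918.

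Of the 10 genes, CCN1 and TEAD4 fell and none rose. This is 2 of 10 lower and 0 of 10 higher, where 2.47% of all tested genes were lower, 2.97% were higher and 5.43% changed in either direction. The 10 genes, and the gene lists below, were chosen with earlier results of these data known. Their counts beside the shares of all genes are therefore descriptive only. Before adjustment, 5 of the 10 were lower and none higher at p under 0.05 in edgeR, where 14.1% of all tested genes were lower, 14.6% higher and 28.7% either. Neither DESeq2 nor limma-voom called any of the 10 higher; they called 7.69% and 2.49% of all genes higher. Fold changes were negative for 8 of the 10, against 49% of all tested genes, with a median log2 fold change of -0.38 (-0.37 without ANKRD1, the least abundant) against 0.01 over all genes. The groups did not overlap for 5 genes: all 3 knockdown libraries lay below all shNC libraries for TEAD1, TEAD4, CCN1 and ANKRD1, and above them for LATS2. ANKRD1, which passed the filter on low counts only through its shNC level, is among the negative, unadjusted and non-overlapping genes, and its place there adds nothing. Over all tested genes the groups did not overlap in 37.8%, with 19.7% lower and 18.1% higher in shMTHFD2. In bulk RNA, fewer cells expressing a gene and less RNA per cell cannot be told apart.

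**Figure D1:**
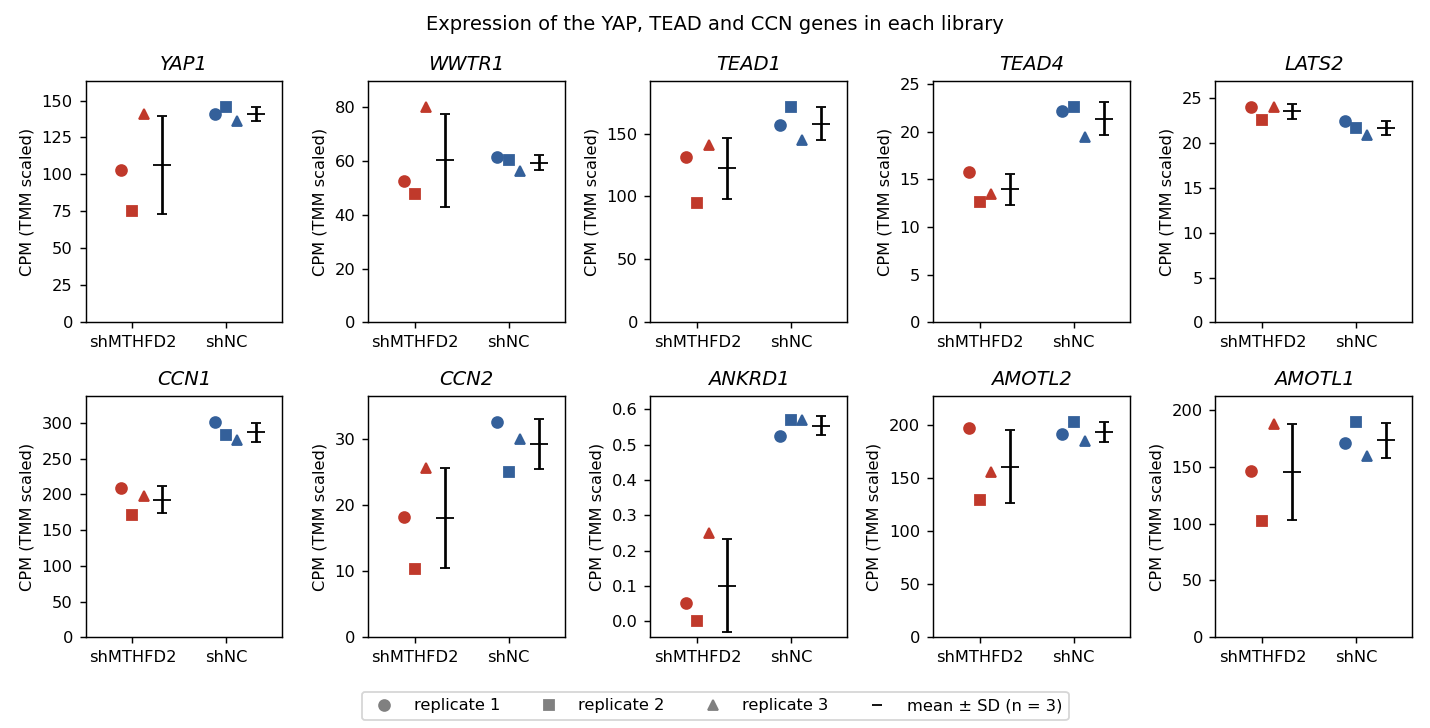
CPM (TMM scaled, linear axes that start at 0 except for ANKRD1, whose axis runs slightly below 0 to show the SD bar) for each of the 10 genes in the 3 shMTHFD2 libraries (red, left) and the 3 shNC libraries (blue, right), with the replicate number as the symbol and the mean ± SD in black. The groups stand apart for TEAD1, TEAD4, LATS2, CCN1 and ANKRD1, and the shMTHFD2 bars are the wider ones for most genes.

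YAP1 (Entrez Gene 10413), the coactivator itself, had 103, 75.3 and 141 CPM in shMTHFD2, against 141, 146 and 136 CPM in shNC. Knockdown replicates 1 and 2 were below every shNC library, while replicate 3 lay among them. The means were 106 ± 33.0 CPM in shMTHFD2 and 141 ± 4.84 CPM in shNC (SD, n = 3 each), and the log2 fold change of -0.40 ± 0.21 did not pass the test (adjusted p = 0.234). Without shMTHFD2 replicate 3 the log2 fold change was -0.64 and passed it (adjusted p = 0.0251).

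WWTR1 (25937), which encodes TAZ, the paralog of YAP, had 52.6, 47.7 and 80.0 CPM in shMTHFD2, against 61.4, 60.3 and 56.3 CPM in shNC. Replicates 1 and 2 of the knockdown again lay below all shNC libraries, but replicate 3 was the highest of the 6. The log2 fold change was 0.02 ± 0.19 (adjusted p = 0.955), and its sign turned to -0.22 without shMTHFD2 replicate 3 and to -0.023 without shNC replicate 3. WWTR1 shares exon sequence with the antisense gene WWTR1-AS1 on the other strand. YAP1, CCN2 and AMOTL1 likewise overlap an antisense gene in GENCODE 29, and AMOTL2 overlaps the pseudogene RPL39P5; how the counting treated strand is not stated, so reads of such partners cannot be told apart.

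The ratio of the coactivators was lower in every knockdown library than in any shNC library. The ratio of YAP1 to WWTR1 on the TPM scale, which is per transcript length, was 1.88, 1.51 and 1.71 in shMTHFD2, against 2.25, 2.33 and 2.30 in shNC. The ranges did not overlap, and the mean log2 ratio was 0.76 ± 0.16 in shMTHFD2 and 1.20 ± 0.03 in shNC (SD, n = 3 each), a difference of -0.44. A two-sided exact permutation test gave p = 0.1, the smallest that 3 against 3 libraries allow. In knockdown replicate 3, where neither gene was below the shNC libraries as a group, the ratio was still below theirs.

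TEAD4 (7004), one of the 4 TEAD factors, had 15.8, 12.6 and 13.5 CPM in shMTHFD2, against 22.1, 22.6 and 19.4 CPM in shNC. The groups did not overlap, with means of 14.0 ± 1.63 CPM in shMTHFD2 and 21.4 ± 1.73 CPM in shNC (SD, n = 3 each). TEAD4 fell by 0.62 ± 0.13 on the log2 scale (adjusted p = 0.0435), a call close to the threshold. TEAD1 (7003), a broadly expressed member of the family, had 131, 95.2 and 141 CPM in shMTHFD2, against 157, 171 and 145 CPM in shNC. Its groups did not overlap either, by a narrow gap between knockdown replicate 3 and shNC replicate 3, and its log2 fold change of -0.37 ± 0.15 did not pass the test (adjusted p = 0.170).

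The other family members TEAD2 and TEAD3 were also expressed. TEAD2 had a log2 fold change of -0.28 ± 0.14 (adjusted p = 0.210) and TEAD3 one of -0.08 ± 0.10 (adjusted p = 0.605). Summed over TEAD1 to TEAD4, the level was 116, 91.95 and 120 TPM in shMTHFD2, against 132, 131 and 122 TPM in shNC. TEAD4 made up 17.9, 16.7 and 15.4% of that sum in shMTHFD2, against 20.9, 21.1 and 19.6% in shNC, without overlap. The mean share was 16.7 ± 1.27% in shMTHFD2 and 20.5 ± 0.822% in shNC (SD, n = 3 each), a difference of -3.86 percentage points (two-sided exact permutation test, p = 0.1, the smallest possible). On estimated counts, which are not per length, the TEAD4 share was 6.61% in shMTHFD2 and 8.09% in shNC, so the difference was -1.48 points on that scale. TEAD3 had the larger mean share in shMTHFD2, 33.1%, against 28.5% in shNC.

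**Figure D2:**
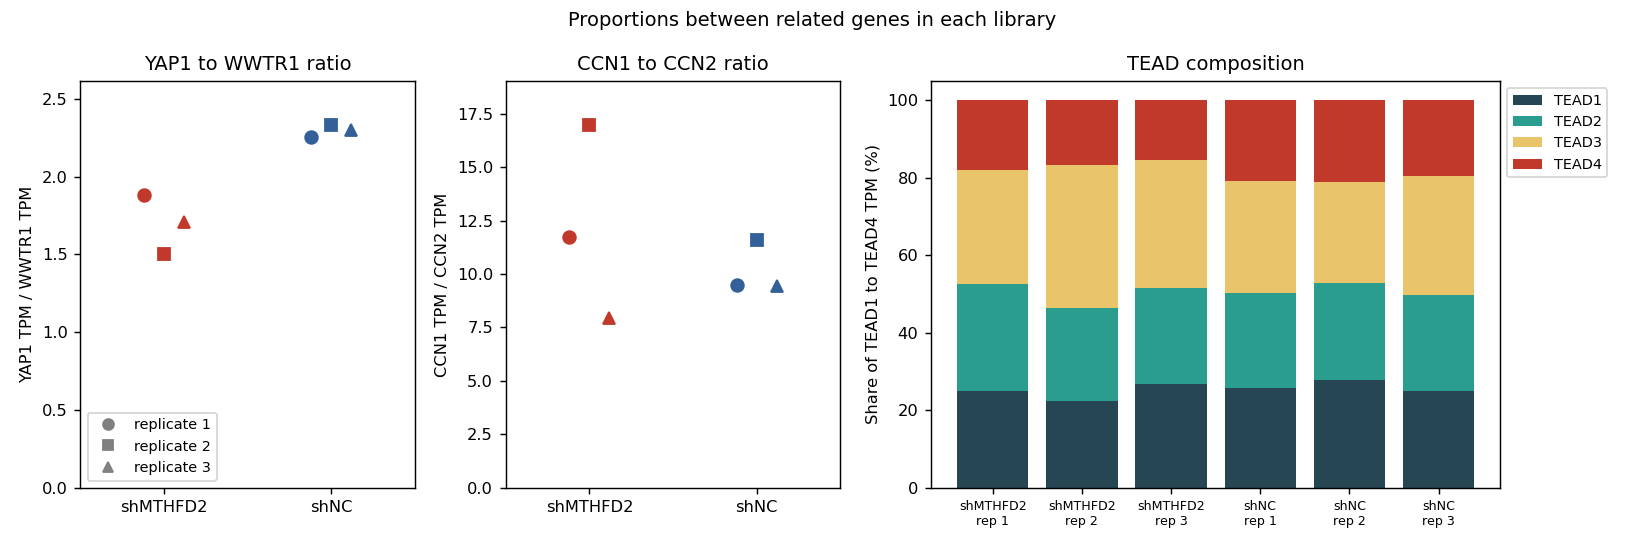
Ratio of YAP1 to WWTR1 TPM (left) and of CCN1 to CCN2 TPM (middle) in each library, shMTHFD2 in red and shNC in blue with the replicate as the symbol, and the percentage of the summed TEAD1 to TEAD4 TPM that each gene made up in each library (right). The YAP1 to WWTR1 ratios are 1.51 to 1.88 in shMTHFD2 and 2.25 to 2.33 in shNC, the CCN ratios overlap, and the TEAD4 block at the top is thinner in all 3 shMTHFD2 bars.

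Of the target genes CCN1, CCN2 and ANKRD1, CCN1 had the highest level and alone passed the test. CCN1 (3491), also known as CYR61, encodes a secreted integrin-binding protein and had 209, 172 and 198 CPM in shMTHFD2, against 302, 282 and 276 CPM in shNC. Every knockdown library was below every shNC library by a gap wider than the spread within either group. The means were 193 ± 19.0 CPM in shMTHFD2 and 287 ± 13.4 CPM in shNC (SD, n = 3 each), and CCN1 fell by 0.57 ± 0.10 on the log2 scale (adjusted p = 0.0301).

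CCN2 (1490), also known as CTGF, a matrix protein linked to fibrosis and the gene with 3 TEAD words in its window, had 18.2, 10.4 and 25.5 CPM in shMTHFD2, against 32.6, 25.03 and 30.0 CPM in shNC. Knockdown replicates 1 and 2 lay below all shNC libraries, and replicate 3 was just above the lowest of them. The log2 fold change was -0.69 ± 0.29, more negative than that of CCN1, but it did not pass the test (adjusted p = 0.171). It was -1.01 without shMTHFD2 replicate 3, which passed (adjusted p = 0.0306), and -0.40 without shMTHFD2 replicate 2, which did not. The ratio of CCN1 to CCN2 TPM was 11.7, 17.0 and 7.96 in shMTHFD2, against 9.51, 11.6 and 9.44 in shNC, with overlap. Its mean log2 difference was 0.20 (two-sided exact permutation test, p = 0.6) and turned to -0.068 without shMTHFD2 replicate 2.

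ANKRD1 (27063), an ankyrin-repeat protein of the nucleus and of the muscle sarcomere, was near the limit of detection. It had 1, 0 and 5 counts in shMTHFD2, against 10, 11 and 11 counts in shNC. Summed, these were 6 counts in shMTHFD2 (exact Poisson 95% interval 2.20 to 13.1) and 32 counts in shNC (21.9 to 45.2), intervals that cover counting error only. All knockdown libraries lay below all shNC libraries. The library with 0 counts is compatible with as many as 3, or 0.159 CPM, and the gene entered the test only through its shNC level. Its fitted log2 fold change of -2.37 ± 0.74 did not pass (adjusted p = 0.0958); at such counts it depends on the prior of the fit, and the counts themselves describe the gene better.

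None of the feedback and junction genes passed the test. LATS2 (26524), the kinase that phosphorylates YAP and TAZ, had 24.0, 22.6 and 24.0 CPM in shMTHFD2, against 22.4, 21.7 and 20.9 CPM in shNC. The knockdown libraries were all the higher ones, by a small margin, with a log2 fold change of 0.12 ± 0.10 (adjusted p = 0.444). AMOTL2 (51421), an angiomotin-like protein that binds YAP at cell junctions, had 197, 129 and 155 CPM in shMTHFD2, against 191, 203 and 184 CPM in shNC. Knockdown replicate 1 lay among the shNC libraries and the other 2 below them, for a log2 fold change of -0.26 ± 0.15 (adjusted p = 0.284).

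AMOTL1 (154810), a second angiomotin-like junction protein, had 147, 103 and 188 CPM in shMTHFD2, against 171, 190 and 159 CPM in shNC. Knockdown replicates 1 and 2 lay below all shNC libraries and replicate 3 among them, and the log2 fold change was -0.25 ± 0.20 (adjusted p = 0.430). On log2(TPM + 1) it was -0.41, also past no threshold. The estimated counts of AMOTL1 per unit of TPM were 4.17, 4.50 and 3.77 in shMTHFD2 and 3.65, 3.45 and 3.96 in shNC, so the length that the deposited TPM assigns to the gene differed between libraries.

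The knockdown libraries differed among themselves in much the same way for most of these genes; ANKRD1, with 1, 0 and 5 counts there, is left aside because its order is not resolved. The other 9 genes had their lowest knockdown value in shMTHFD2 replicate 2, the library with the least MTHFD2, as did 41.4% of all tested genes. For 8 of the 9 it was the lowest of all 6 libraries, as for 34.2% of all tested genes; LATS2 was the exception. The highest knockdown value was in replicate 3 for 5 genes (YAP1, WWTR1, TEAD1, CCN2 and AMOTL1), as for 39.2% of all tested genes. It was in replicate 1 for the other 4, as for 19.2% of all tested genes. The 5 genes highest in replicate 3 thus had the order of MTHFD2 across the 3 knockdown libraries. The share of all tested genes with that order was not computed. Relative to the shNC mean, the median log2 level of the 9 genes other than ANKRD1 was -0.26, -0.74 and -0.17 in knockdown replicates 1, 2 and 3. The median over all tested genes in those libraries was -0.03, 0.00 and -0.01. With 3 libraries no relation to MTHFD2 depth was tested.

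**Figure D3:**
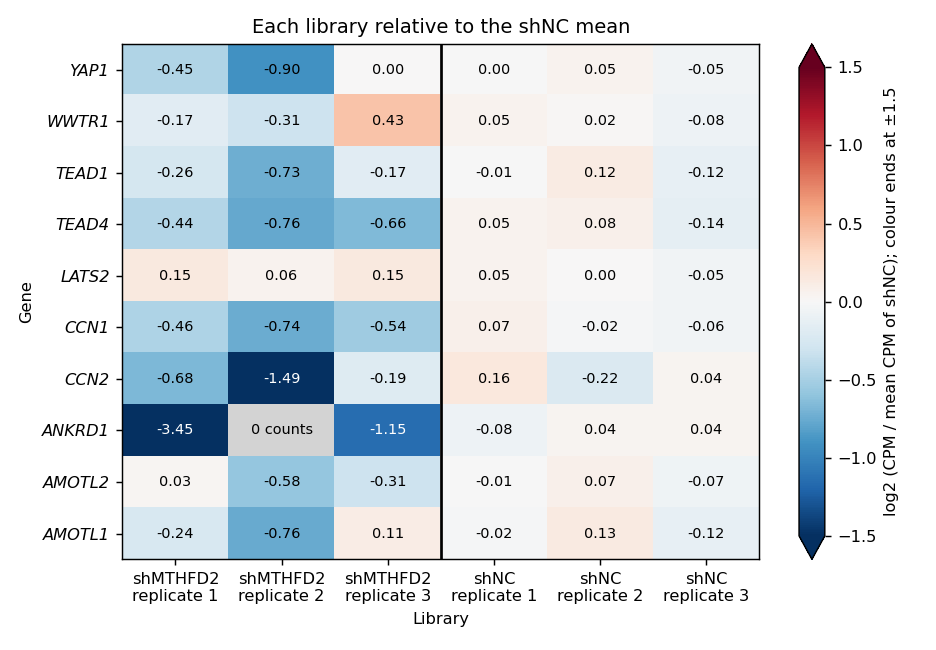
Log2 of each library's CPM over the mean CPM of shNC for the 10 genes (rows), with the shMTHFD2 libraries left of the line and the shNC libraries right of it; the colour ends at ±1.5 and a library with 0 counts is grey. The column of shMTHFD2 replicate 2 is the darkest blue, with -0.90 for YAP1 and -1.49 for CCN2, whereas replicate 3 reads 0.00 for YAP1 and 0.43 for WWTR1 but -0.66 for TEAD4 and -0.54 for CCN1.

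Both calls depended on which libraries were in the fit. TEAD4 kept its call when knockdown replicate 2 (adjusted p = 0.0268) or 3 (0.0333) was left out, and lost it without shMTHFD2 replicate 1 (0.0959) or shNC replicate 1, 2 or 3 (0.218, 0.236 and 0.117). CCN1 kept its call when knockdown replicate 2 (adjusted p = 0.00956) or 3 (0.0184) was left out, and lost it without shMTHFD2 replicate 1 (0.0948) or shNC replicate 1, 2 or 3 (0.195, 0.180 and 0.111). The sizes moved less than the calls: the log2 fold change was -0.72 to -0.53 for TEAD4 and -0.64 to -0.48 for CCN1 over the 6 omissions. The share of all genes called lower moved as well, to 0.0504% without shMTHFD2 replicate 1, 7.09% without replicate 2 and 12.6% without replicate 3. It was 0%, 0% and 0.0215% without shNC replicates 1, 2 and 3. Without shMTHFD2 replicate 3, YAP1 and CCN2 passed along with TEAD4 and CCN1, which makes 4 of the 9 genes other than ANKRD1. ANKRD1 is not counted there, since its remaining knockdown libraries held 1 and 0 counts.

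Over 10 other ways of scaling, filtering or testing the same 6 libraries, CCN1 passed in 9 and TEAD4 in 3. With the replicate number as a block, neither passed (adjusted p = 0.113 for CCN1 and 0.138 for TEAD4), and 0.0365% of all genes were lower. TEAD4 and CCN1 both passed with DESeq2 size factors (2.18% of all genes lower), in DESeq2 (6.82%) and in limma-voom (2.39%). CCN1 alone passed with upper quartile scaling (1.53%), total counts (1.68%), no filter (1.51%), a filter at a mean of 5 CPM (2.06%), and limma-trend on log2(TPM + 1) (1.47%) or log2(TPM + 0.1) (1.46%). TEAD4 had adjusted p-values of 0.0516 to 0.0730 in those 6 settings.

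**Figure D4:**
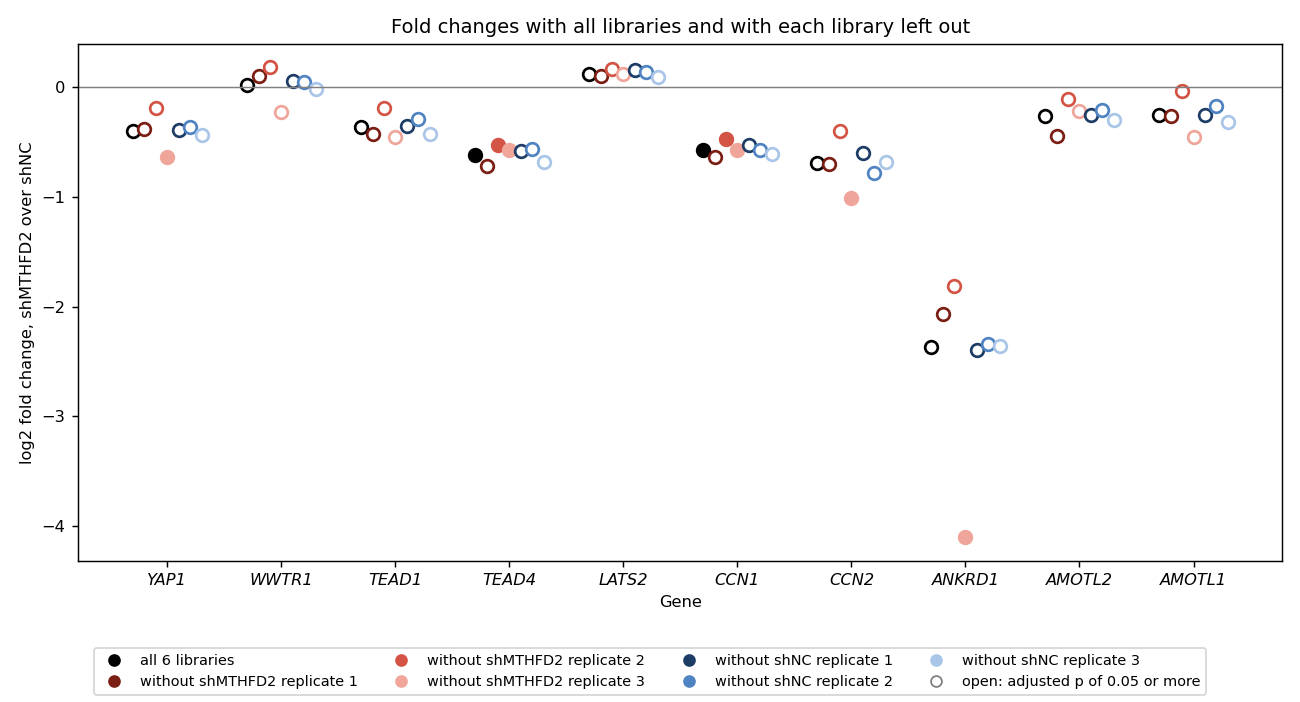
Log2 fold change of shMTHFD2 over shNC for each of the 10 genes with all 6 libraries (black) and with each library left out in turn (reds for shMTHFD2, blues for shNC); filled points have an adjusted p under 0.05 and open points do not. TEAD4 and CCN1 stay between -0.72 and -0.48 throughout, while YAP1 and CCN2 move down and become filled without shMTHFD2 replicate 3. The ANKRD1 points are fitted to 0 to 5 counts per knockdown library and their size is not read.

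On the TPM scale the genes spanned from CCN1 to ANKRD1 in both groups. In shMTHFD2 the order was CCN1 at 179 ± 20.7 TPM, AMOTL2 at 76.3 ± 16.4, YAP1 at 42.9 ± 15.0, AMOTL1 at 36.5 ± 13.9, TEAD1 at 27.1 ± 6.0, WWTR1 at 25.1 ± 8.08, TEAD4 at 18.2 ± 2.69, CCN2 at 16.5 ± 7.37, LATS2 at 9.04 ± 0.457 and ANKRD1 at 0.123 ± 0.164 TPM (SD, n = 3). From YAP1 down to LATS2 each neighbour overlapped the next, so that order is not resolved. In shNC it was CCN1 at 257 ± 15.6 TPM, AMOTL2 at 88.0 ± 4.93, YAP1 at 54.5 ± 2.93, AMOTL1 at 46.6 ± 6.78, TEAD1 at 33.6 ± 3.03, TEAD4 at 26.3 ± 2.07, CCN2 at 25.5 ± 3.49, WWTR1 at 23.8 ± 1.36, LATS2 at 8.08 ± 0.400 and ANKRD1 at 0.633 ± 0.0208 TPM (SD, n = 3). Overlapping neighbours there were YAP1 with AMOTL1, TEAD4 with CCN2, and CCN2 with WWTR1. WWTR1 thus stood above TEAD4 and CCN2 in shMTHFD2 and below them in shNC by means, within overlapping ranges.

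The rest of the pathway was read from 7 lists by role, 91 genes of which 88 were tested. Most but not all of the 10 genes belong to a list, and without them 83 genes were listed and 80 tested. In these lists 1 gene rose and 7 fell, with a median log2 fold change of -0.16; without the 10 genes 1 of 80 rose and 5 fell, with a median of -0.12. Over all tested genes 2.97% rose and 2.47% fell, with a median of 0.01. The kinase core (the MST and LATS kinases, the scaffold SAV1 and the MOB cofactors) gave no call: none of 7 passed in edgeR, and none had an unadjusted p under 0.05 or passed in DESeq2 or limma-voom. Of all genes 5.43% passed in edgeR and 28.7% had an unadjusted p under 0.05 there. DESeq2 called 14.5% and limma-voom 4.88% in either direction. With 7 genes, the lack of a call says little about the core. Its smallest adjusted p-values were those of SAV1, the MST scaffold, at -0.26 on the log2 scale (adjusted p = 0.191), and LATS1 at -0.15 (adjusted p = 0.278).

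Of 19 upstream regulators 1 fell and 1 rose, beside 2.47% and 2.97% of all tested genes. Before adjustment 2 were lower and 1 higher at p under 0.05 in edgeR, beside 14.1% and 14.6% of all genes. DESeq2 called 2 lower and 1 higher (6.82% and 7.69% of all genes). In limma-voom 1 was lower and 1 higher (2.39% and 2.49%). NF2, which encodes merlin, the membrane scaffold that brings LATS kinases to be activated, had 31.7, 27.5 and 27.2 CPM in shMTHFD2, against 49.1, 46.2 and 44.2 CPM in shNC. It fell by 0.69 ± 0.11 on the log2 scale (adjusted p = 0.0218), with knockdown libraries that agreed closely with each other and stood well below the controls. TNIK, a kinase of the MAP4K-related group that is also a Wnt cofactor, had 6.03, 9.0 and 7.52 CPM in shMTHFD2, against 2.36, 3.52 and 3.10 CPM in shNC, and rose by 1.32 ± 0.23 (adjusted p = 0.0276).

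Of 15 inhibitors of the kinases and members of the STRIPAK phosphatase complex, which removes phosphates from MST kinases, 2 fell and none rose. The shares of all tested genes were 2.47% and 2.97%. TRIP6, a LIM-domain protein that binds and inhibits LATS, fell by 0.50 ± 0.10 (adjusted p = 0.0358), and STRN3, a striatin scaffold of STRIPAK, fell by 0.49 ± 0.10 (adjusted p = 0.0427). In this list 4 genes were lower and 1 higher at p under 0.05 before adjustment, beside 14.1% and 14.6% of all genes. DESeq2 called 3 lower (6.82% of all genes) and limma-voom 2 (2.39%), with none higher in either. Of 19 proteins that tether YAP or TAZ at junctions or in the cytoplasm, AMOTL1 and AMOTL2 among them, none passed in edgeR or limma-voom, and 1 was called higher by DESeq2 (7.69% of all genes). Before adjustment 2 of the 19 had p under 0.05, 1 in each direction, beside 28.7% of all genes in either direction. The closest were PATJ, a tight-junction scaffold, at 0.35 (adjusted p = 0.0639), and TJP1, the junction protein ZO-1, at -0.33 (adjusted p = 0.141).

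Among TEAD factors and their VGLL cofactors, which compete with YAP for TEAD, 2 of 7 fell, TEAD4 and VGLL1, and none rose. Over all tested genes 2.47% fell and 2.97% rose. VGLL1 was scarce, with 15, 10 and 12 counts in shMTHFD2 against 34, 25 and 38 counts in shNC, and fell by 1.40 ± 0.31 (adjusted p = 0.0453). In the CCN family CCN1 was the only gene of 4 tested to fall, and the median log2 fold change was -0.63. This median rests on few genes, CCN1 and CCN2 among them. It was -0.34 without the filter and -0.34 in DESeq2, where all 6 CCN genes were in the fit. Of the 22 genes of a YAP target signature 2 fell, CCN1 and AXL, and none rose. Before adjustment 8 were lower and 1 higher at p under 0.05, beside 14.1% and 14.6% of all genes. ANKRD1, which was tested only through its shNC level, is among the 8, and its place there adds nothing. DESeq2 called 4 lower (6.82% of all genes) and limma-voom 2 (2.39%), with none higher in either. AXL, a receptor tyrosine kinase, had 143, 79.2 and 163 CPM in shMTHFD2, against 371, 339 and 322 CPM in shNC. It fell by 1.42 ± 0.25 (adjusted p = 0.0275), with all knockdown libraries far below the controls and the lowest again in replicate 2. The median of the signature, with ANKRD1 included, was -0.26.

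CCN1 and CCN2 are also induced through SRF and its MRTF coactivators, so 20 genes of that pathway were read alongside. Of the 19 tested, SRF itself fell and none rose (2.47% and 2.97% of all tested genes), with a median of -0.09. Fold changes were negative for 17 of the 19, against 69.3% of tested genes in the 7 Hippo lists and 49% of all tested genes. SRF had 59.2, 57.4 and 55.2 CPM in shMTHFD2, against 94.2, 96.0 and 85.2 CPM in shNC, a fall of 0.68 ± 0.09 on the log2 scale (adjusted p = 0.0166). The SRF groups did not overlap and the knockdown libraries lay within a few CPM of each other, unlike AXL. Before adjustment 4 of the list were lower and none higher at p under 0.05, beside 14.1% and 14.6% of all genes. DESeq2 called 3 of the list lower (6.82% of all genes) and limma-voom 1 (2.39%), with none higher in either. Each of the 9 genes called in these lists, CCN1 and TEAD4 included, kept its call without shMTHFD2 replicate 2 or 3 and lost it in the other 4 omissions. Over the 10 other settings NF2, TNIK, AXL and SRF each passed in 9. TRIP6 passed in 6, VGLL1 in 4 and STRN3 in 3, so these calls were the less steady ones, as was that of TEAD4.

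**Figure D5:**
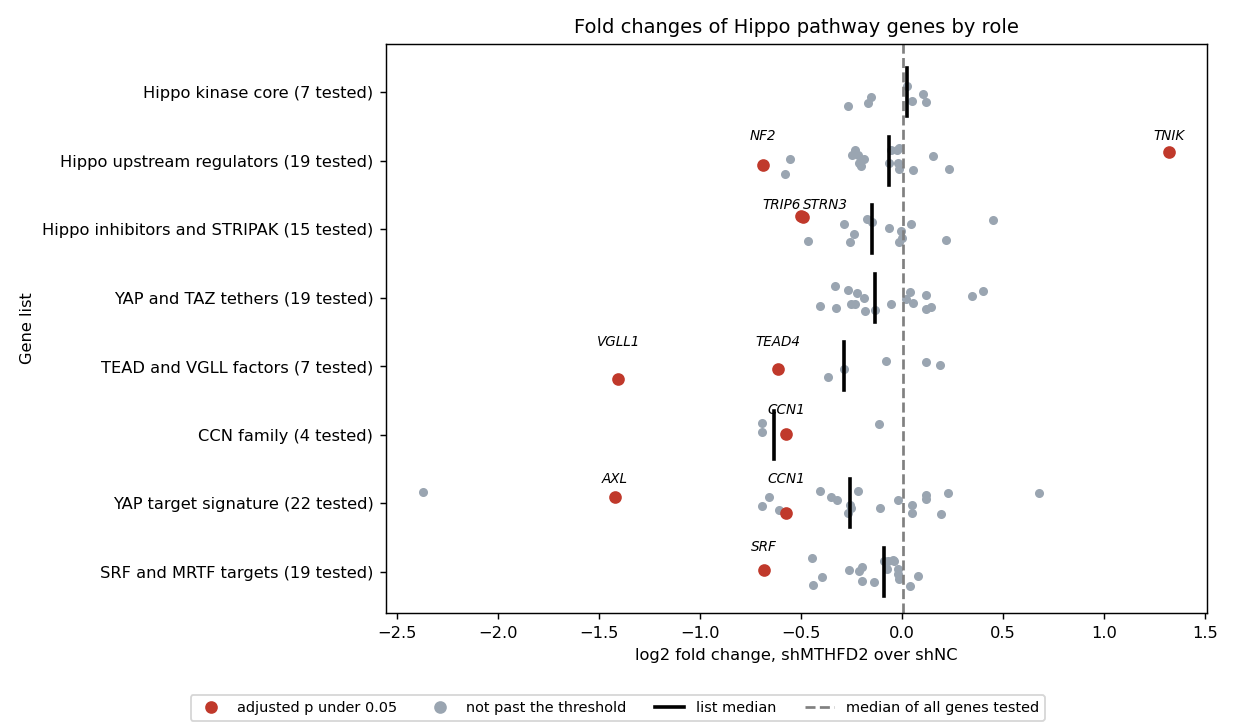
Log2 fold change of shMTHFD2 over shNC for every tested gene of the 7 Hippo lists and the SRF list (rows), in red with its name where the adjusted p is under 0.05 and in grey otherwise, with the list median as a black bar and the median of all tested genes as a dashed line. The kinase core sits on the dashed line with a median of 0.03, and the CCN family lies furthest left with a median of -0.63 over its 4 tested genes.

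The genes nearest in pattern differed between the coactivator and its targets. Nearness was the root mean square difference in log2 CPM, each gene centred on its own mean over the 6 libraries, among tested genes with a mean of at least 5 CPM. Nearest to YAP1 were SMC1A, a cohesin subunit, at 0.0154, DBNL, an actin-binding adaptor, at 0.0213, and ESYT1, a membrane-tethering protein, at 0.0243; none of the 3 passed the test. Nearest to CCN1 were the transporter genes SLC35A4 at 0.0340 and SLC35C1 at 0.0394, which fell, and NDUFAF6, a complex I assembly factor, at 0.0436 (adjusted p = 0.0526). CCN2 had no neighbour as close: NNMT, a nicotinamide methyltransferase, at 0.106, S100A3 at 0.115 and the cytokine gene IL1B at 0.122. These are likenesses over 6 libraries of 2 groups and describe these libraries only.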

How the data were processed

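RNA of 6 SCC-9 libraries was analysed from 1 table. Its read-count columns, as deposited, hold estimated counts (53.0 to 56.0% whole within 0.001), beside deposited FPKM and TPM values and a normalized count signal per the file headers. The authors' normalized signal was not tested, and FPKM served for ratios only. The choice of aligner, counter, annotation and strandedness was not given in the sources used here. According to the submitters' processing notes the build was mm10, which is a mouse build, although 17793 of 17862 identifiers are in a human RefSeq table.

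Counts were rounded, filtered by filterByExpr, scaled by TMM and tested without covariates by edgeR 4.0.16 (quasi-likelihood, robust; R 4.3.3), with a threshold of 0.05 over 13710 genes. The method was run on simulated counts with 200 changed genes. It called 64.8% of log2 changes of size 1, 88.4% of those of size 2, and 21 unchanged genes. Those counts had the same spread in both groups, whereas the shMTHFD2 libraries varied more than the shNC libraries. The run therefore does not vouch for single calls near the threshold. SE values were taken as the size of the log2 fold change over the root of F. TPM served for levels between genes. No library was a duplicate of another (chi-square per degree of freedom 3.64 to 81.8). Same-numbered libraries did not deviate together. Alternatives used limma 3.58.1 and DESeq2 1.42.0.

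The 10 genes and the lists were chosen with earlier results of these data known. Named were the 10 genes, MTHFD2, up to 4 members past the threshold per list (otherwise the 2 nearest to it), the top marker per cell type and the 3 nearest patterns; TEAD2 and TEAD3 were added for the TEAD sum. Figures used Python 3.11.15 and matplotlib 3.10.9.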

Additional observations from a re-analysis of the deposited data

How the results depend on the processing

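Each library was left out in turn, and 10 other settings were run for the fits. Over the 6 omissions the count of genes was 1 to 1895 higher and 0 to 1756 lower, against 407 and 338 with all libraries; the 10 genes had 0 to 5 lower (ANKRD1 among the 5), against 2, and the 7 pathway lists 0 to 5 higher and 0 to 16 lower, against 1 and 7. Log2 fold changes ran from -0.64 to -0.19 for YAP1, -0.22 to 0.18 for WWTR1 (reversed at -0.22 and -0.023), -0.46 to -0.19 for TEAD1, -0.72 to -0.53 for TEAD4, 0.09 to 0.17 for LATS2, -0.64 to -0.48 for CCN1, -1.01 to -0.40 for CCN2, -4.10 to -1.81 for ANKRD1 (fitted to 0 to 5 knockdown counts, so its size is not read), -0.44 to -0.11 for AMOTL2, -0.46 to -0.04 for AMOTL1 and -2.19 to -1.74 for MTHFD2. The mean log2 ratio of CCN1 to CCN2 differed by -0.068 to 0.48, that of YAP1 to WWTR1 by -0.52 to -0.35, and the TEAD4 share by -4.48 to -3.22 points. Upper quartile scaling gave 210 genes lower, 1 of the 10 lower, 2 list genes higher and 3 lower, and -0.55 for TEAD4. Total counts gave 1 of the 10 and 4 list genes lower and -0.57 for TEAD4; no filter gave 1, 4 and -0.62; a mean of at least 5 CPM gave 1 and 4 lower, 2 list genes higher and -0.56. DESeq2 called 1051 genes higher and 932 lower, with 2 list genes higher and 11 lower. limma-trend gave 183 genes lower, 1 of the 10, 4 list genes lower and -0.52 for TEAD4 on log2(TPM + 1), and 182, 1, 4 and -0.54 on log2(TPM + 0.1). WWTR1 reversed to -0.016 in limma-voom. Higher calls made up 54.6% of all calls, but 68.4% with upper quartile scaling, 66.1% with total counts and 67.8% on log2(TPM + 1). The cause of these shifts was not tested. ANKRD1 had no value with a mean of at least 5 CPM or on TPM, and no adjusted p in DESeq2. LATS2 stayed positive and the other 8 genes besides WWTR1 negative in every setting that gave a value.

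The replicate numbers did not pair the libraries: deviations of same-numbered libraries correlated at 0.00, -0.24 and -0.19. With the replicate number as a block, 11 genes were higher and 5 lower (0.0365% of genes), with 0 of the 10 genes lower, 0 list genes higher and 0 lower; WWTR1 reversed to -0.017, TEAD4 was -0.62 (adjusted p = 0.138) and CCN1 -0.58 (adjusted p = 0.113). Depth limits ANKRD1, with 0 to 11 counts per library, and VGLL1, with 10 to 38; the other 9 of the 10 genes had at least 196 counts in every library.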
